A study of Mus musculus with 2 samples.

Results

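The genes described here encode 8 cathepsins (Ctsa, Ctsb, Ctsc, Ctsd, Ctsh, Ctsl, Ctss and Ctsz), the saposin precursor (Psap) and the lysosomal membrane protein Lamp1. They were chosen by gene symbol, and every transcript model assigned to one of these symbols was counted. All 10 genes had reads in both libraries, out of 18111 annotated genes with reads in either. They drew 5590 reads on 141 transcript models in replicate 1 and 4451 reads on 130 models in replicate 2. This was 0.525% of the reads in annotated genes in replicate 1 (exact 95% interval 0.511–0.539%) and 0.470% in replicate 2 (0.457–0.484%).

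RNA of adrenal glands from B6CASTF1/J females, an F1 cross between a C57BL/6J and a CAST/EiJ parent, was sequenced at 14 days of age as long cDNA reads. The 2 libraries are biological replicates 1 and 2 of a single group, for which the labels give no treatment. In the sample names, replicate 1 is tissue of 3 females while replicate 2 carries the number of a single female, yet both share a donor identifier. Whether a library holds 1 animal or a pool is therefore not settled by the labels, and p-values below compare the reads of these 2 libraries rather than animals.

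Lysosomes break down proteins, lipids and sugars in an acidic lumen. Cathepsins are their proteases: they are made as inactive precursors, most are carried to the lysosome by mannose 6-phosphate receptors, and they are activated there by cleavage. Prosaposin is cut in the lysosome into saposins A to D, small proteins that present sphingolipids to their hydrolases. Lamp1 is a heavily glycosylated protein that lines the inner face of the lysosomal membrane. In mammals many of these genes respond to the transcription factor TFEB and its relatives, which bind an E-box with the core CACGTG.

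Psap is known for a microexon of 9 nt whose inclusion adds 3 codons within the saposin B part of the coding sequence. In GENCODE M21 on mm10 it lies at chr10:60297537-60297545 on the plus strand and belongs to transcript Psap-205. The reads at this point of the gene were assigned by the intron between positions 60296003 and 60299097 (3095 nt), which skips the microexon. The annotated and observed forms are given below as 15 nt of the upstream exon, the added bases in capitals and 15 nt of the downstream exon, because these forms are what the reads were sorted into.
Psap-202, no added bases: atgttgatgcacatgcaacccaaggaaatc
Psap-201, 6 nt added at the acceptor: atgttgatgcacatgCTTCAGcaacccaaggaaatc
Psap-205, 9 nt exon: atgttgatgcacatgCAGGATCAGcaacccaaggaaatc
Psap-204, 4 nt at the donor and a 5 nt exon: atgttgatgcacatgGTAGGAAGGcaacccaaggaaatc
Unannotated, 4 nt at the donor: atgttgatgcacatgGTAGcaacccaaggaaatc
Psap-204 and Psap-205 have the same length of 2657 nt but differ in the added bases, and the 6 nt and 9 nt additions lie within the annotated coding sequence. The 6 nt and 9 nt additions keep the reading frame at 2 and 3 codons, whereas the 4 nt addition alone is not a whole number of codons.

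At a further 2 junctions, 3 nt at the start of an exon were left out of some reads. The bases lost are in capitals between 15 nt on each side, the first line from chr10:60299215-60299481 and the second from chr8:13159420-13165866, both on the plus strand.
Psap, 3 nt lost at the next acceptor: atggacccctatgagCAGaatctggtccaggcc
Lamp1, 3 nt lost at the acceptor of exon 2: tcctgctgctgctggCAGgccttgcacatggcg
In both, the bases left out were CAG, and AG is the pair of bases that ends most introns.

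RefSeq promoter sequence on GRCm38.p6 was matched for 8 of the 10 genes, and Ctsb and Ctsh are named only. The hexamer CACGTG, which reads the same on both strands, occurred in the 250 bases before a RefSeq start of 4 of these 8 genes: Ctsa, Ctsd, Ctsl and Lamp1. For Ctsl, on the minus strand, those bases (chr13:64370521-64370770) lie inside the GENCODE gene, which begins at 64370890. The Ctsl match is therefore not upstream of the whole gene. The Ctsd gene, also on the minus strand, begins at 142388038 in GENCODE, while its RefSeq start is at 142387827. Its match nearer that start therefore lies inside the GENCODE gene too. So does the Ctsa match, which precedes the downstream RefSeq start of that gene. The hexamer occurred in 6.02% of all 32851 promoters of that length and in 6.86% of 27025 genes with any promoter in the set. Other lysosomal lists held it too, in 3 of 8 matched genes of sorting to the lysosome and 3 of 8 sphingolipid hydrolases. It was in 3 of 13 lysosomal membrane genes, 5 of 22 other lysosomal hydrolases, 1 of 12 other cathepsins and 0 of 7 cathepsin inhibitors. The longer palindrome TCACGTGA, which contains the hexamer, was found for 2 of the 8, Ctsa and Ctsd, against 0.907% of genes. In the same lists it was found for 2 of 8 sorting genes, 1 of 8 sphingolipid hydrolases, 2 of 13 membrane genes and 1 of 22 other hydrolases. For the other cathepsins it was 0 of 12 and for the inhibitors 0 of 7. Ctsd held 2 copies, at 245 and 98 bases before the start, Lamp1 held 4 and Ctsa and Ctsl 1 each. Stretches of Ctsa, Ctsd (the copy nearer the start) and Lamp1 are shown with the hexamer in capitals. A second RefSeq start of Ctsa lies in an exon described below, and Lamp1 has the most copies.
Ctsa, plus strand, chr2:164833743-164833772, the last 30 bases before the downstream RefSeq start: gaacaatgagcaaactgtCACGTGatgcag
Ctsd, minus strand, chr7:142387911-142387940, 113 to 84 bases before the start: ccctcgcccgcgtctCACGTGacccgttga
Lamp1, plus strand, chr8:13159091-13159160, the last 70 bases before the start: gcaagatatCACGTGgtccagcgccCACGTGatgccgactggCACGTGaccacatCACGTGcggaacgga
The hexamer was not among the letters of the upstream Ctsa promoter or of those matched for Ctsc, Ctss, Ctsz and Psap. A match of letters is a description and shows no binding.

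The libraries differed in markers of other tissues, and every comparison of levels below is made between these libraries. Markers of the steroidogenic cortex were present in both, all 9 of 9, and made up 5.66% (replicate 1) and 2.52% (replicate 2) of the reads in genes, and chromaffin markers made up 1.31% and 0.509%. The 14 hepatocyte markers together rose from 0.0548% in replicate 1 to 5.85% in replicate 2, all 14 past the test, and Tat was the one at 0 reads in replicate 1. The skeletal muscle markers went from 0.00892% to 0.222%, with all 9 measured of 12 past the test and Myh1, Myh2 and Tnnt3 at 0 in replicate 1. Of 9211 genes tested, 790 (8.58%) were called higher in replicate 2 and 1646 (17.9%) lower by an exact binomial test on reads, with a median log2 ratio of replicate 2 over replicate 1 of -0.28. That median was -0.03 with TMM scaling, -0.04 with DESeq2 size factors and 0.31 when scaled to spike-in reads. The part that liver or muscle RNA plays in the values of the lysosomal genes was not tested. In bulk tissue, fewer cells of a type and less RNA per cell cannot be told apart.

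Levels are given as CPM, a gene's reads scaled to a common total of reads in annotated genes, and since each read stands for a cDNA molecule they were not divided by length. The proteases Ctsb and Ctsd were the most abundant of the 10. Ctsb (ENSMUSG00000021939.8, chr14:63122462-63145923, plus strand), a cysteine protease, was counted 1903 times in replicate 1 and 1552 times in replicate 2, or 1786 and 1640 CPM (1713 ± 103, SD, n = 2). It was the 36th and 51st most abundant gene of the respective library. Ctsd (ENSMUSG00000007891.16, chr7:142375911-142388038, minus strand), the main aspartic protease of lysosomes, had 1819 and 1125 reads, or 1707 and 1189 CPM (1448 ± 367, SD, n = 2), and ranked 39th and 89th. The ranges of the pair overlapped, so their order is not separated by the spread between libraries.

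Lamp1 (ENSMUSG00000031447.7, chr8:13159161-13175338, plus strand) came next with 629 and 642 reads, or 590 and 678 CPM (634 ± 62.2, SD, n = 2). Ctsl (ENSMUSG00000021477.9, chr13:64359337-64370890, minus strand), a cysteine endopeptidase, had 585 and 435 reads, or 549 and 460 CPM (504 ± 63.2, SD, n = 2). The lower Lamp1 value lay above the higher Ctsl value. Ctsz (ENSMUSG00000016256.10, chr2:174427493-174439039, minus strand), a carboxypeptidase, followed with 223 and 230 reads, or 209 and 243 CPM (226 ± 23.8, SD, n = 2). Ctsa (ENSMUSG00000017760.16, chr2:164832873-164841032, plus strand), a serine carboxypeptidase that also protects beta-galactosidase and neuraminidase in a complex, had 187 and 175 reads, or 175 and 185 CPM (180 ± 6.64, SD, n = 2). Neither Ctsz nor Ctsa overlapped its neighbours in the order.

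Ctsh and Psap were of similar abundance. Ctsh (ENSMUSG00000032359.14, chr9:90054152-90076089, plus strand), an aminopeptidase, had 111 and 155 reads, or 104 and 164 CPM (134 ± 42.1, SD, n = 2). Psap (ENSMUSG00000004207.14, chr10:60277627-60302597, plus strand) had 123 and 113 reads, or 115 and 119 CPM (117 ± 2.79, SD, n = 2), within the range of Ctsh. The saposin precursor was counted below Ctsh in replicate 2 and above it in replicate 1, and below Ctsb, Ctsd, Ctsl, Ctsz and Ctsa in both libraries.

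Ctsc and Ctss were the rarest of the set. Ctsc (ENSMUSG00000030560.17, chr7:88278085-88310888, plus strand), which activates serine proteases of leukocyte granules, had 6 and 15 reads, or 5.63 and 15.8 CPM (10.7 ± 7.22, SD, n = 2). Ctss (ENSMUSG00000038642.10, chr3:95526786-95556403, plus strand), which trims the invariant chain in antigen-presenting cells, had 4 and 9 reads, or 3.75 and 9.51 CPM (6.63 ± 4.07, SD, n = 2). Their ranges overlapped. A count of 0 would allow a level of up to 2.82 CPM in replicate 1 and 3.17 CPM in replicate 2, and the Ctss level of replicate 1 was just above it.

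**Figure D1:**
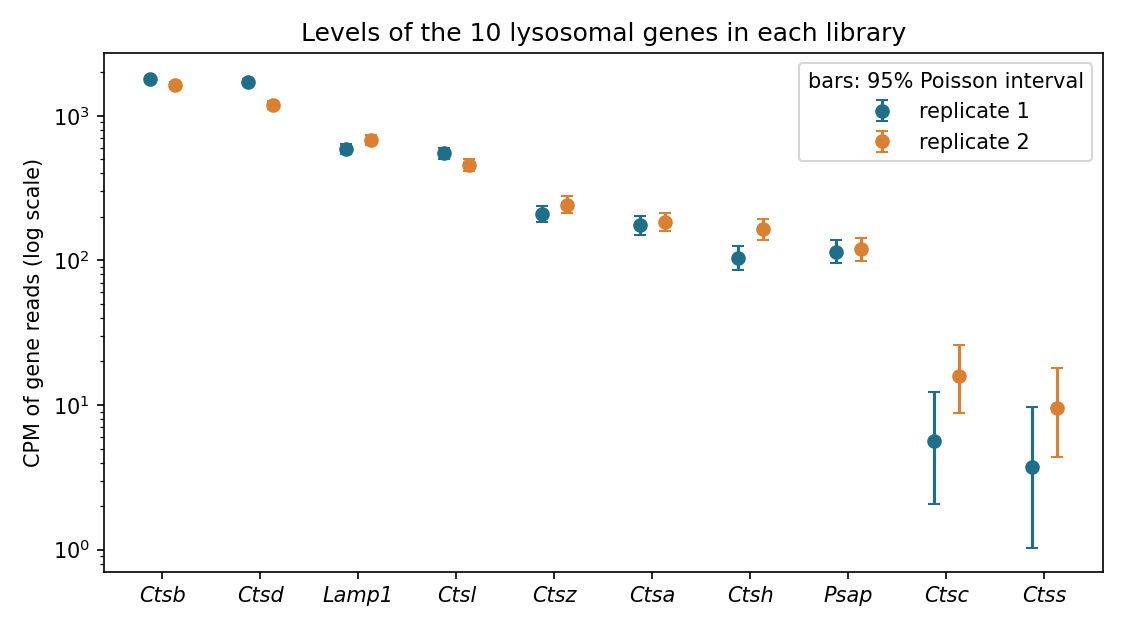
CPM of each of the 10 genes (x axis, ordered by mean) on a log axis, with a point per library and its 95% Poisson interval, which covers counting error only. The genes run from Ctsb at 1786 and 1640 CPM to Ctss at 3.75 and 9.51 CPM, and the intervals of the 2 libraries lie well apart for Ctsd (1707 and 1189 CPM) and Ctsh (104 and 164 CPM).

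Between genes the order also depended on the scale. Divided by the length of the leading annotated transcript, Ctsd came first at 681 CPM per kb and Ctsb second at 361, because Ctsb-201 is 4743 nt long and Ctsd-202 is 2127 nt. Ctsh at 82.8 CPM per kb then passed Ctsa at 71.1, and Ctss at 4.89 passed Ctsc at 4.31. Ctsa was divided by the 2534 nt of Ctsa-202, to which few of its reads belong. The model of its leading chain was 1753 nt long in replicate 1 and 2651 nt in replicate 2, so its place beside Ctsh rests on the length chosen. The other genes kept their places, with Lamp1 at 285, Ctsl at 256, Ctsz at 157 and Psap at 44.4 CPM per kb.

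All genes of the set but Ctss reached the 20 summed reads set for a test. Scaled to gene reads, the abundant proteases Ctsd, Ctsl and Ctsb were lower in replicate 2 and the aminopeptidase Ctsh was higher, but of these only Ctsh kept its direction under all 4 scalings tried, and Ctsb, Ctsd and Ctsl each turned under at least 1. By the exact conditional binomial test with Benjamini-Hochberg adjustment over all 9211 genes, 3 of the 9 were called lower (Ctsd, Ctsl and Ctsb), 1 was called higher (Ctsh) and 5 were not called. These counts stand beside the background of 17.9% lower and 8.58% higher. The median log2 ratio of the 9, replicate 2 over replicate 1, was 0.08 against -0.28 for all genes tested.

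Ctsd had the largest drop, a log2 ratio of -0.52 (counting SE 0.055, exact test adjusted p = 1.67e-20). Its direction held with TMM scaling (-0.27, adjusted p = 6.80e-06 by the exact test) and with DESeq2 size factors (-0.28), and it turned with spike-in scaling (0.07, adjusted p = 0.457). Ctsl was lower at a log2 ratio of -0.26 (SE 0.091, exact test adjusted p = 0.0234), was -0.01 with TMM and with DESeq2 factors, and turned to 0.33 with spike-in scaling. Ctsb was lower by a small margin at -0.12 (SE 0.049, exact test adjusted p = 0.0488). It was 0.13 with TMM, 0.12 with DESeq2 factors and 0.46 with spike-in scaling, so no direction can be given for Ctsb apart from the scaling. Its call also ended, at the same ratio, with a minimum of 10 summed reads and with no minimum. When edgeR's exact test was given a variation between animals of 0.2 (an assumed coefficient), it called none of the 9 genes, none had an unadjusted p under 0.05, and the adjusted p was 0.730 for Ctsd and 0.991 for Ctsb.

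Ctsh was higher in replicate 2 at a log2 ratio of 0.65 (SE 0.179, exact test adjusted p = 0.00190). It stayed higher with TMM (0.90), DESeq2 factors (0.89) and spike-in scaling (1.24), and its adjusted p in edgeR's exact test with the assumed variation was 0.683. Ctsc had a ratio of 1.42 (SE 0.674, exact test adjusted p = 0.0915) and Ctss 1.25 without a test, both positive and both resting on under 20 reads a library. Markers of macrophages and other leukocytes, cells in which Ctsc and Ctss are well known, summed to 0.0240% of the reads in genes for replicate 1 and 0.0416% for replicate 2. Of 18 such markers 17 had reads, 8 were tested and 3 were called higher (Cd74, C1qb and H2-Ab1), none lower, beside 8.58% and 17.9% of all genes. With TMM, with DESeq2 factors and with spike-in scaling, 6 of the 8 were called higher, beside 11.9%, 11.7% and 22.5% of all genes. Among the defining markers Lyz2 had 48 and 67 reads, Cd68 had 4 and 6, Adgre1 had 2 and 5, Ptprc had 1 and 2, and Marco was at 0 in both libraries. Csf1r had 19 and 21 reads and was not called, Aif1 had 1 and 1, and Cx3cr1 went the other way with 4 and 3. Their part in the Ctsh difference was not tested.

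The remaining genes were not called when scaled to gene reads, but Lamp1 and Ctsz gained a call with TMM and with DESeq2 factors. Lamp1 stood just beyond the threshold at a log2 ratio of 0.20 (SE 0.081, exact test adjusted p = 0.0505) and was 0.45 with TMM (adjusted p = 4.36e-07 by the exact test) and 0.79 with spike-in scaling. Ctsz had 0.22 (SE 0.135), which became 0.46 with TMM (exact test adjusted p = 0.00493) and 0.80 with spike-in scaling. Ctsa had 0.08 (SE 0.152) and Psap 0.05 (SE 0.188). The adjusted p of Ctsz, Ctsa and Psap by the exact test were 0.264, 0.794 and 0.908. With spike-in scaling Ctsa was at 0.66 and Psap at 0.64, and both were called higher (exact test adjusted p = 0.000137 and 0.00563).

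Scaling moved the split between higher and lower calls. With TMM 3 of the 9 genes were called higher (Ctsh, Lamp1 and Ctsz) and 1 lower (Ctsd), beside 11.9% and 6.98% of all genes. DESeq2 factors gave the same 3 and 1, beside 11.7% and 7.12%. Scaled to spike-in reads, 8 were called higher and 0 lower, beside 22.5% and 1.85%. Ctsd was the gene outside those 8.

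**Figure D2:**
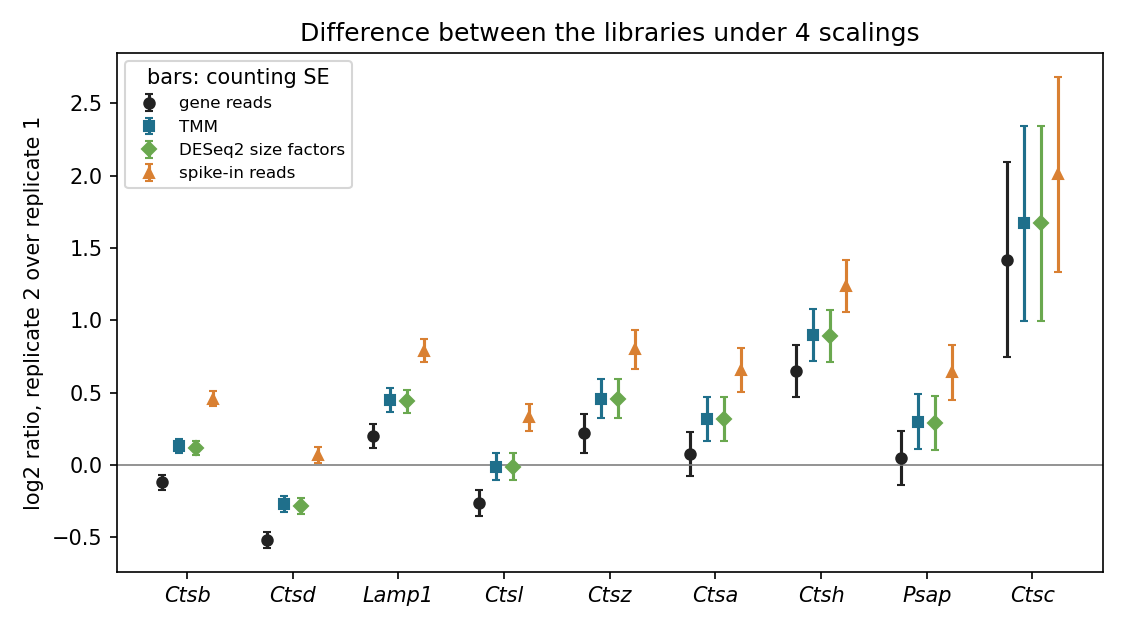
Log2 ratio of replicate 2 over replicate 1 (y axis) for the 9 genes with at least 20 summed reads, under scaling by gene reads, TMM, DESeq2 size factors and spike-in reads, with bars of 1 counting SE. Ctsh, Ctsc, Lamp1, Ctsz, Ctsa and Psap lie above 0 under all 4 scalings, Ctsd lies below 0 under all but the spike-in scaling (0.07), and Ctsb moves from -0.12 to 0.46.

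Among the reads, transcript models fall into classes. Known models have every intron of some annotated transcript, incomplete splice matches (ISM) have only a consecutive stretch of its introns, and NIC and NNC models hold new combinations of annotated splice sites or at least 1 unannotated site. Known models held 87.4% to 95.2% of the reads of Ctsb, Ctsd, Ctsh, Ctsl and Ctsz in either library, and 83.3% and 84.3% of those of Lamp1. The median over all genes tested was 82.0%. Psap and Ctsa stood below. Psap had 48.8% Known reads in replicate 1 and 65.5% in replicate 2, a difference that was not called (Fisher's exact test, adjusted p = 0.412), at the 18.1 percentile of genes. Ctsa had only 4.81% and 6.86%, at the 2.21 percentile, and 87.7% and 90.3% of its reads were ISM. None of the 8 genes that reached 20 reads per library differed in Known share by Fisher's exact test at an adjusted p under 0.05, beside 0.637% of 5969 genes called. At an unadjusted p under 0.05 there were 2, Ctsb and Psap.

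**Figure D3:**
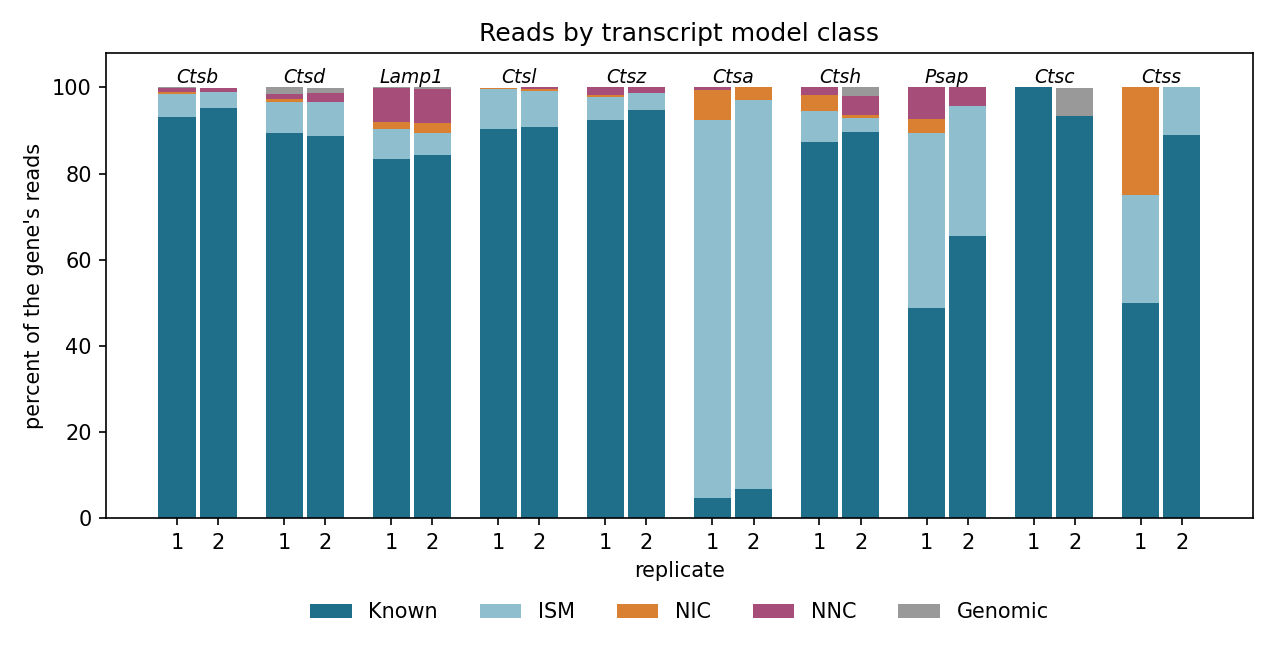
Percent of each gene's reads (y axis) in Known, ISM, NIC, NNC and Genomic models, with a stacked bar for each library and the genes ordered by mean level. Ctsa is mostly ISM in both libraries (87.7% and 90.3%), Psap is the next lowest in Known reads among the 8 genes that reached 20 reads per library, and the bars of Ctsc and Ctss rest on 4 to 15 reads.

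Each gene used mainly a single chain of introns. The leading chain held 96.1% and 97.3% of the multi-exon reads of Ctsb, 96.3% and 96.0% of those of Ctsz, 90.9% and 89.9% of Ctsd, 91.2% in both libraries of Ctsl, and 92.4% and 89.5% of Ctsh. For Lamp1 it was 87.2% and 87.1%, and for Ctsa 83.3% and 85.1%. The median leading share over 5374 genes was 80.3%. Psap was the exception within the set, with its leading chain, that of Psap-202, in 53 of 94 multi-exon reads of replicate 1 (56.4%, exact 95% interval 45.8–66.6%) and 59 of 102 of replicate 2 (57.8%, 47.7–67.6%), at the 23.1 percentile of genes. No leading share of these 8 genes differed between the libraries by Fisher's exact test at an adjusted p under 0.05, and 0 did at an unadjusted p under 0.05, beside 0.558% of the 5374 genes called. Ctsc and Ctss were below the read minimum, with the leading chain in 5 of 6 and 14 of 14 reads for Ctsc and in 2 of 4 and 7 of 8 for Ctss.

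Ctsa was read mostly as a form that M21 does not hold as a whole transcript. Its leading chain has 14 introns and was found in 155 of 186 multi-exon reads in replicate 1 and 149 of 175 in replicate 2. The first intron of the read ran from 164833851 to 164834029 on chromosome 2 in 166 reads (89.2%) and 153 reads (87.4%). The exon that ends at 164833850 is an internal exon of Ctsa-201, Ctsa-203 and Ctsa-214, and a first exon only in the short annotated transcripts Ctsa-210 (659 nt) and Ctsa-212 (436 nt). RefSeq places a start at 164833773, within that exon, and it is the start whose last 30 bases are shown above with the E-box. By contrast, the intron from 164833197 to 164834029, which joins the upstream first exon of Ctsa-202 to the same acceptor, was the first intron of 6 reads (3.23%) in replicate 1 and 11 (6.29%) in replicate 2. The start of individual reads could not be read from the files. The model of the leading chain begins at 164833807 in replicate 1 and at 164832909 in replicate 2, and a model position is not that of each read.

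No Psap read was assigned to the 9 nt microexon in these adrenal libraries. Of 81 reads across the site in replicate 1 and 84 in replicate 2, 0 held the 9 nt exon in either, which by counting allows a share of up to 3.70% and 3.57%. Forms were sorted by the introns of the deposited models, and the sequences of the reads were not examined. A read whose 9 nt were aligned in another way would be counted under another form, and this was not tested. The form without added bases had 70 reads (86.4%, exact 95% interval 77.0–93.0%) and 66 reads (78.6%, 68.3–86.8%). The 6 nt extension of Psap-201 was the second form, with 7 reads in replicate 1 (8.64%, 3.55–17.0%) and 18 in replicate 2 (21.4%, 13.2–31.7%), or 15.0% ± 9.04 (SD, n = 2). The libraries differed in this share by Fisher's exact test at an unadjusted p of 0.0292, for a form singled out after its values were seen, and their intervals overlap. The unannotated 4 nt extension at the donor was in 4 reads of replicate 1 (4.94%) and 0 of replicate 2, where up to 3.57% is allowed, and the 5 nt exon that follows it in Psap-204 was not seen with it. Counted by annotated transcript, Psap-202 had 53 and 59 reads, Psap-201 had 7 and 15, and Psap-203, Psap-204 and Psap-205 had 0 in both libraries.

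At the next intron of Psap, 9 of 82 reads in replicate 1 (11.0%, 5.14–19.8%) and 3 of 85 in replicate 2 (3.53%, 0.734–9.97%) used the acceptor that leaves out the CAG shown above. That acceptor is not annotated in M21. Lamp1 showed the same kind of variation at the start of exon 2. There, an unannotated acceptor 3 nt upstream was used by 27 of 560 reads in replicate 1 (4.82%, 3.20–6.94%) and 34 of 587 in replicate 2 (5.79%, 4.04–8.00%). The acceptor 3 nt downstream, also unannotated, was used by 14 of 547 (2.56%, 1.41–4.26%) and 6 of 559 (1.07%, 0.395–2.32%). Skipping of this 119 nt exon (chr8:13165849-13165967), which is coding, was seen in 8 reads (1.48%) and 10 reads (1.78%), and the length is not a multiple of 3. Shifts of 3 nt at a splice site of the leading chain made up 6.82% and 6.44% of the multi-exon reads of Lamp1 and 9.57% and 2.94% of those of Psap, at the 94.5 and 94.3 percentiles of 5374 genes. Ctsb had 5 and 3 such reads, and Ctsa, Ctsd, Ctsh, Ctsl and Ctsz had 0 in both libraries. Over all tested genes the median was 0, and 6.36% of genes reached 5% or more.

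**Figure D4:**
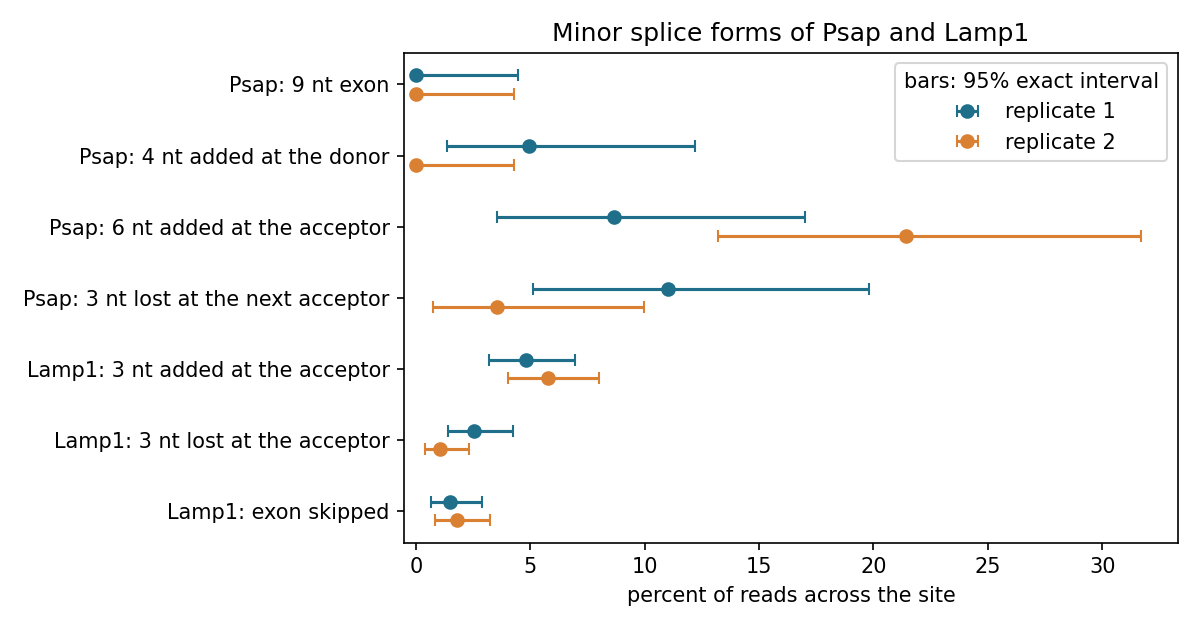
Percent of reads across a site (x axis) that use each minor splice form of Psap and Lamp1, one point per library with its exact 95% interval. The 9 nt exon of Psap is at 0 in both libraries, the 6 nt extension is at 8.64% and 21.4%, and the Lamp1 forms lie between 1.07% and 5.79%.

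Other minor junctions were rare. An unannotated donor of Ctsd that shortens an exon by 5 nt was in 17 of 1785 reads (0.952%) and 7 of 1107 (0.632%). For Ctss, the reads of annotated chains were mostly those of Ctss-202, with 2 and 7 reads, and Ctss-201, which differs by a 3 nt shift of an acceptor, had 0 and 1.

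Psap also differed from the others in how far its reads extended. Among reads that hold the leading chain or only its 3′ part, 71.6% in replicate 1 (53 of 74) and 74.7% in replicate 2 (59 of 79) crossed all 13 introns of Psap. The share that crossed all introns was 95.1% and 94.9% for the 14 introns of Ctsa, 97.4% and 98.3% for Ctsb, 96.9% and 97.7% for Lamp1, 98.6% and 97.3% for Ctsz, 98.0% and 95.8% for Ctsh, 92.8% and 92.0% for Ctsd and 91.7% and 92.3% for Ctsl. The Ctsa chain, unlike the others, is not that of a whole annotated transcript. Crossing its 14 introns therefore does not make a read full-length by the annotation. Of the shorter Psap reads, 7 in replicate 1 and 11 in replicate 2 stopped after the intron at chr10:60300059-60300147, the fourth from the 3′ end. No other step of the chain before the first intron lost more than 4 reads in either library. A further 29 and 11 Psap reads had a single exon. Counted in this way, the share of full chains was lower for Psap, and the counts of splice forms near its middle rest on 81 and 84 of its 123 and 113 reads.

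**Figure D5:**
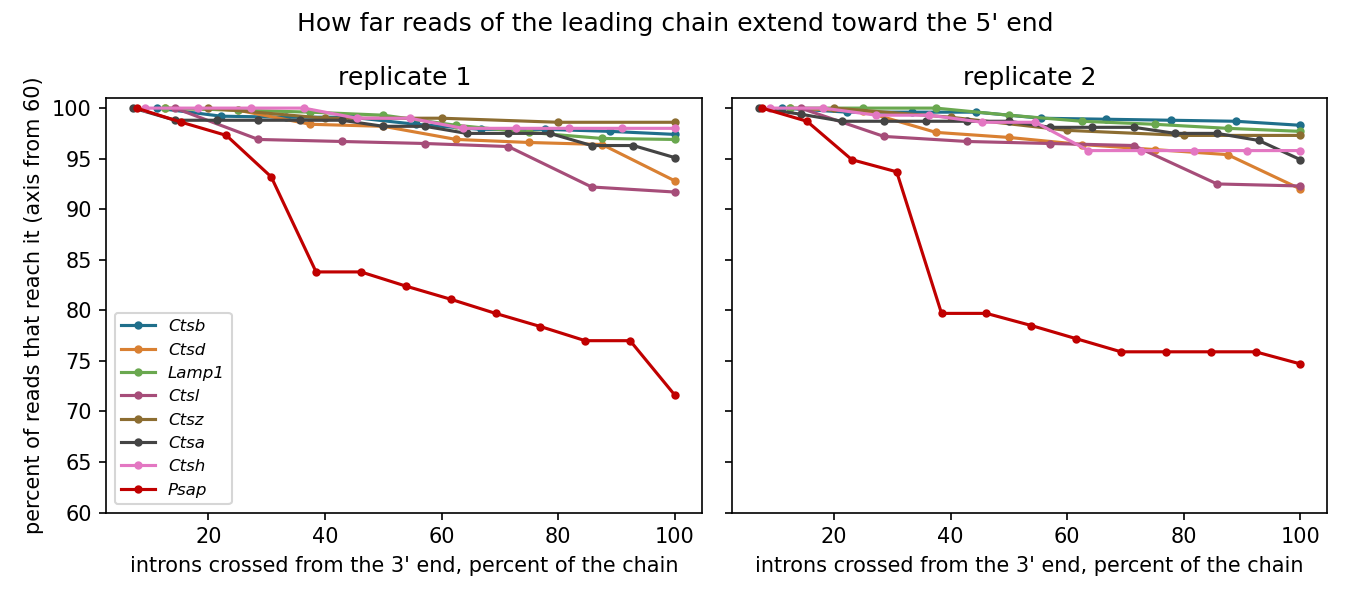
Percent of reads (y axis, starting at 60) that reach each intron of the leading chain, counted from the 3′ end as a percent of the introns in that chain (x axis), for the 8 genes that reached 20 reads per library. The leading chain of Ctsa is not that of a whole annotated transcript. Psap drops from 93.2% to 83.8% in replicate 1 and from 93.7% to 79.7% in replicate 2 between the fourth intron and the one after it, and ends at 71.6% and 74.7%, while the other 7 genes end above 91%.

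The other genes of the lysosome were drawn from lists of the pathway, and their counts stand beside 8.58% of all genes higher, 17.9% lower and 6775 of 9211 not called. Among the other cathepsins, 5 of 14 had reads. Ctsf, a cysteine protease of broad expression, had 708 and 424 reads (664 and 448 CPM) and was called lower in replicate 2 at a log2 ratio of -0.57 (SE 0.089, exact test adjusted p = 1.53e-09), which became 0.02 with spike-in scaling. It was thus more abundant than Ctsl in replicate 1 and less so in replicate 2. Ctso had 144 and 93 reads with a ratio of -0.46 (exact test adjusted p = 0.0583). Ctse had 11 and 2 reads, Ctsk, the cathepsin of osteoclasts, had 3 and 2, and Ctsg had 0 and 1, all below the test minimum. Of the cathepsin inhibitors, Cst3 (cystatin C, a secreted inhibitor of cysteine cathepsins) had 776 and 577 reads with a ratio of -0.26, and Cstb (cystatin B, a cytosolic inhibitor) had 291 and 163 with -0.66. Both were called lower, 2 of 2 measured, and Cst3 turned to 0.33 with spike-in scaling. Cst6 had 0 and 2 reads.

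Of 9 measured genes of sorting to the lysosome, 0 were higher, 2 lower and 7 not called, and with TMM 1 was higher and 1 lower. Those lower when scaled to gene reads were M6pr, the cation-dependent mannose 6-phosphate receptor (354 and 192 reads, ratio -0.71, exact test adjusted p = 2.93e-07), and the adaptor gene Gga1 (144 and 81 reads, -0.66). Ap1m1, a subunit of the AP-1 clathrin adaptor, had 138 and 112 reads with -0.13. The median of this list was -0.13. Of 14 measured lysosomal membrane genes, 1 was higher, 5 lower and 8 not called, with a median of -0.11. The counts were 1 higher and 1 lower with TMM and with DESeq2 factors, and 3 higher and 0 lower with spike-in scaling. Lamp2, the closest relative of Lamp1, was the one called higher, with 300 and 360 reads and a ratio of 0.43 (SE 0.113, exact test adjusted p = 0.000947) that kept its sign with spike-in scaling at 1.02. Tspan3 (348 and 236 reads, -0.39) and Laptm4b (369 and 177, -0.89) were called lower, and Tspan3 turned to 0.20 with spike-in scaling. The other 3 called lower, named after their values were seen, were Cd63, Ostm1 and Tmem192.

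The breakdown of sphingolipids was represented by 10 measured genes, of which 3 were called lower and 0 higher, with a median of -0.49 against -0.28 for all genes. Gm2a, the activator protein for GM2 ganglioside, had 222 and 134 reads (-0.56), and Hexa, the alpha subunit of beta-hexosaminidase, had 207 and 112 (-0.71). Smpd1, acid sphingomyelinase, had 147 and 126 (-0.05) and was not called. Asah1, acid ceramidase, was the remaining gene called lower (139 and 70 reads, -0.81) and was named after its values were seen. With TMM 2 of the 10 were called lower and 0 higher, and with spike-in scaling Gm2a turned to 0.03, 0 of the 10 were called lower and 1 was called higher. Of 23 other measured lysosomal hydrolases and related lumenal proteins, 1 was higher, 2 lower and 20 not called, with a median of -0.13. With TMM 2 were higher and 2 lower, and with spike-in scaling 8 were higher and 0 lower. Scpep1, a serine carboxypeptidase related to Ctsa, had 290 and 157 reads (-0.71, called lower), Grn, the progranulin gene, had 239 and 201 (-0.08), and Lipa, the lysosomal acid lipase that frees cholesterol from its esters, had 198 and 214 (0.28). The others called, named after their values were seen, were Lgmn (264 and 132 reads, lower), which encodes the protease that processes several cathepsins, and Acp5 (19 and 42 reads, higher). Of the regulators 3 were measured and none was called: Zkscan3 had 66 and 36 reads, Tfe3 had 36 and 19 and Tfeb had 21 and 16. Markers of 3 cell types were also lower in replicate 2. All 9 cortex markers were called lower with a median of -1.10, 8 of 9 chromaffin markers with a median of -1.32, and all 5 measured erythroid markers with a median of -1.64 (1.13% and 0.362% of the reads in genes). With spike-in scaling 8, 6 and 5 of them were still called lower. Of 6 measured adipocyte markers 2 were higher and 0 lower, and of 9 endothelial markers 0 were higher and 1 lower. The part of any of these in the lysosomal values was not tested.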

How the data were processed

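The authors deposited, for both libraries, the count of reads on each transcript model as whole numbers without scaling. Per the file headers, models have TALON identifiers and classes and rest on GENCODE M21 and mm10. The sources used here do not name an aligner or a TALON version. Replicates were kept separate. Reads of every class were summed per annotated gene and divided by gene reads without spike-ins, 1065570 and 946553 of 1143111 and 991731 reads. Intron chains came from the deposited annotation of each library, and models with the same chain were summed.

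A two-sided exact conditional binomial test was run on genes whose reads summed to 20 or more. For the shares of the leading chain and of Known reads, Fisher's exact test was used where both libraries had 20 reads or more. P-values were adjusted by Benjamini-Hochberg over all genes tested, at 0.05. Log2 ratios had 0.5 reads added. Shares have Clopper-Pearson and levels Poisson 95% intervals, and a count of 0 was set a limit of 3 counts. No molecular identifiers mark the reads, and all errors given are those of counting alone. Scripts ran in Python 3.11.15 with scipy 1.17.1 and R 4.3.3 with edgeR 4.0.16 (TMM and the exact test at an assumed coefficient of variation of 0.2) and DESeq2 1.42.0 (size factors). The tests were checked on simulated counts drawn with counting error only. That check cannot show how often they call genes when libraries vary in other ways.

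The members and gene lists were chosen with earlier results of these data known. The text names all 10 members, every measured gene among the other cathepsins and the 3 genes of highest mean CPM in each other lysosomal list. RefSeq promoters (250 bases before the start) and GENCODE M21 transcripts gave the sequences.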

Additional observations from a re-analysis of the deposited data

How the results depend on the processing

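No paired analysis was possible because the libraries form a single group. The count of the 10 genes called higher in replicate 2 was 1 as reported, 3 with TMM, 3 with DESeq2 size factors, 8 with spike-in reads, 2 with totals that leave out hepatocyte and skeletal muscle markers and 0 with the assumed coefficient of variation. The count called lower was 3 as reported and 1, 1, 0, 1 and 0 under the same settings. It was 2 with a minimum of 10 summed reads and with no minimum, where Ctsb lost its call. Ctsb turned from -0.12 to 0.13 with TMM, 0.12 with DESeq2 factors and 0.46 with spike-in reads, Ctsd from -0.52 to 0.07 and Ctsl from -0.26 to 0.33 with spike-in reads. The share of gene reads held by the 10 genes was 0.560% over Known transcripts, and 0.470% to 0.525% with either library left out. The 9 nt exon of Psap stayed at 0 under all 6 alternatives, and its 6 nt extension, with alternatives chosen after seeing the data, lay between 8.64% and 21.4%. Ctsc and Ctss are limited by depth.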

Other observations

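Unannotated single-exon loci opposite to some of these genes drew reads in both libraries, and the strand of unspliced reads is uncertain. Opposite to Psap, 27 reads on 5 loci in replicate 1 and 26 reads on 2 loci in replicate 2 were assigned, against 123 and 113 reads of Psap itself. The largest lay at chr10:60278560-60279238 with 12 reads in replicate 1 and at chr10:60278561-60280922 with 19 reads in replicate 2. Another had its lowest coordinate at 60297545, the last base of the 9 nt microexon, with 9 reads in replicate 1 and 7 in replicate 2. On the strand assigned to it, that position is its 3′ end. Opposite to Ctsb, a locus with its lowest coordinate at chr14:63125486 had 18 reads in each library, against 1903 and 1552 of Ctsb. Lamp1 had 2 and 3 such reads, Ctsc 2 and 2, Ctsz 2 and 1 and Ctsh 2 and 0, and none were assigned opposite to Ctsa, Ctsd, Ctsl or Ctss.

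Annotated neighbours on the other strand overlap the ends of 4 of the genes. Pltp, the phospholipid transfer protein gene at the Ctsa locus, had 18 reads in replicate 1 and 42 in replicate 2. Neurl2, which overlaps the 5′ end of Ctsa, had 5 and 7 reads. Fdft1, the squalene synthase gene beside Ctsb, had 29 and 19 reads. Nelfcd beside Ctsz had 147 and 114 reads, and Grtp1 beside Lamp1 had 8 in each.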
